A study of Mus musculus with 14 samples.

Results

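The tumor suppressor p53, some of the genes it activates and the inhibitors of cyclin-dependent kinases (CDKs) were followed in lymphoid nodules from mice with floxed Eif3e and Cγ1Cre (cKO). The set held 10 genes of the 32285 in the count matrices, chosen by symbol: Trp53, Mdm2, Ccng1, Trp53inp1, Zmat3, Cdkn1a, Cdkn1b, Cdkn2a, Cdkn2b and Cdkn2c. All 10 symbols were found, each with 1 gene identifier. White nodules that arose in 7 cKO mice were used, and each gave 1 single-cell RNA library and 1 library of receptor chains. The nodules of 6 mice were primary, whereas that of mouse 27 was a secondary tumor, grown from its liver nodule in a recipient mouse. Recipients were Rag2-/- mice, which form no mature B or T cells of their own, and whether the organ and age given for mouse 27 are those of donor or recipient was not stated. B cell receptors (BCRs) were profiled in the liver nodule of mouse 27 at 12 mo, the lung nodule of mouse 29 at 12 mo, the spleen nodule of mouse 31 at 13 mo, the thymus nodule of mouse 33 at 16 mo and the lung and thymus nodules of mouse 34 at 9 mo. T cell receptors (TCRs) were profiled in the liver nodule of mouse 30 at 14 mo and the spleen nodule of mouse 32 at 12 mo. Every mouse of origin carried floxed Eif3e alleles (Eif3e fl/fl) and Cγ1Cre, a Cre expressed from the Ighg1 locus and so expected in B cells that transcribe it. Mice 29, 31, 32 and 34 also carried the Rosa26-YFP reporter, which Cre switches on. Strain was given as C57BL/6J for the study's mice, no drug treatment was named, and no control nodule was among the libraries. Organ, age, mouse, library and, for mouse 27, transplantation therefore cannot be told apart, and all comparisons were made between cells of the same nodules or between nodules.

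p53 is a transcription factor that is kept low by the ubiquitin ligase Mdm2 and accumulates after DNA damage or oncogene activity, when it switches on genes that halt the cell cycle, repair DNA or kill the cell. CDK inhibitors of the CIP/KIP family (Cdkn1a, Cdkn1b) bind cyclin-CDK complexes, whereas those of the INK4 family (Cdkn2a, Cdkn2b, Cdkn2c) bind Cdk4 and Cdk6 and thereby keep the retinoblastoma protein active. In lymphomas, p53 or the Cdkn2a locus is often inactivated, and Cdkn1b protein is usually high in resting lymphocytes and falls on cell-cycle entry.

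A clone was the set of cells carrying a nodule's most frequent heavy chain (BCR mice) or TCR β chain (TCR mice). Cells carrying the light chain or TCR α chain most often found with that chain were also counted, whatever their heavy or β chain. Chains were matched by V gene, J gene and CDR3 nucleotides. Of 75503 cells kept, 15554 belonged to the 7 clones, from 323 cells in mouse 29 to 4868 in mouse 32. Non-clonal cells of 2 kinds served for comparison in the same nodule. The first were T-like cells outside the clone, 394 (mouse 30) to 5128 (mouse 29) per nodule, present in all 7 nodules and of another lineage than the clone in the 5 BCR mice. The second were B-like cells with another receptor, available in mice 29, 31, 33 and 34 only, with 32, 41, 27 and 23 cells. In the TCR mice, T-like cells without a receptor call may include clone cells whose chain was missed. The T-like comparison cells of the TCR mice were therefore limited to those with a receptor call. Levels are a gene's UMIs summed over the cells of a set and scaled to a total of 1000000 UMIs (CPM), with 95% Poisson intervals that cover counting error only. Clone sums held 3898561 UMIs (mouse 29) to 48564762 UMIs (mouse 31), and T-like sums 982640 (mouse 30) to 16872785 (mouse 33).

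Lineage markers of the clones matched the receptor profiled. The summed level of 7 B-like markers was 1597 to 3399 CPM in B cell clones and 61.6 to 198 CPM in their T-like cells, and no B-like marker was at 0 in a B cell clone. The summed level of 7 T-like markers was 9.41 to 59.1 CPM in B cell clones, 1169 to 2786 CPM in their T-like cells and 2083 to 3465 CPM in T cell clones. The T-like sums also held 84.2 to 344 CPM of 6 NK-like markers, whose part in the results was not tested. In mouse 27 most clone cells lay in a cluster left unnamed, since it raised plasma-like markers beside B-like ones. Eif3e, the targeted gene, was read at 142 to 243 CPM in clones and 116 to 183 CPM in T-like cells. It was higher in the clone than in T-like cells in all 5 B cell nodules and lower in both T cell nodules, and gene counts do not show which exons were read. The study reported that tumor B cells and CD4+ T cells lacked YFP and had normal levels of eIF3e protein. Of 72288 distinct cell barcodes, 3129 occurred in more than 1 library, and leaving out those cells changed no count of members called.

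Promoter sequence was available for 8 of the 10 genes, and the sequences with a p53 half-site, the 10-base unit that occurs as a pair in p53 response elements, are printed first because they show which members carry p53's letters next to their start. RefSeq windows of build GRCm38.p6 were searched over the 250 bases before each start. The half-site is its own reverse complement, so both strands were covered. Each line gives 40 bases, 5′ to 3′ on the gene's strand, with the half-site in capitals.
Mdm2, chr10:117710920-117710959, minus strand: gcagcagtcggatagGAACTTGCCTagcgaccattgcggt
Ccng1, chr11:40755447-40755486, minus strand: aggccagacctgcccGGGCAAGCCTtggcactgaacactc
Trp53, chr11:69580269-69580308, plus strand: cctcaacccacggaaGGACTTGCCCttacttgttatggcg
Cdkn1a, chr17:29090891-29090930, plus strand: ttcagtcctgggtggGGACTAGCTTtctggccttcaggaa
Cdkn1a, chr17:29090913-29090952, plus strand: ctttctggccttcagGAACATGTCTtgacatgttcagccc

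A half-site stood in the window of 4 members, against 7.13% of all 32851 promoter windows. The first base of the half-site lay 186 bases upstream of the start in Mdm2, 185 in Ccng1, 75 in Trp53, and 73 and 51 in Cdkn1a. Cdkn1a alone of the members held a pair of half-sites with a spacer of at most 13 bases, which 0.0639% of all windows held. Cdkn1b, Cdkn2a, Cdkn2b and Cdkn2c had no such letters in these windows, and Trp53inp1 and Zmat3 had no window. A match describes letters only, since no binding was measured.

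Trp53 encodes p53 itself (chromosome 11, bases 69580348 to 69591873). It was read in every clone, with 105, 125, 102, 162, 110.4, 114 and 99.1 CPM in mice 27, 29, 30, 31, 32, 33 and 34, respectively. In the same order of mice, T-like cells had 109, 64.3, 81.4, 130.2, 92.1, 105 and 110.3 CPM. The ranges of clones and T-like cells overlapped. The ratio of clone to T-like cells ran from 0.90 in mouse 34 to 1.95 in mouse 29 (95% interval 1.71 to 2.22), and its interval lay above 1 in 4 of 7 nodules and below 1 in none. The mean difference over the 5 B cell clones was 0.29 on the log2 scale (SE 0.22, adjusted p = 0.367 by edgeR's quasi-likelihood test with Benjamini-Hochberg adjustment over all genes), which did not pass the 0.05 threshold. Trp53 transcript level says nothing of p53 protein or of mutations, which were not measured.

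**Figure D1:**
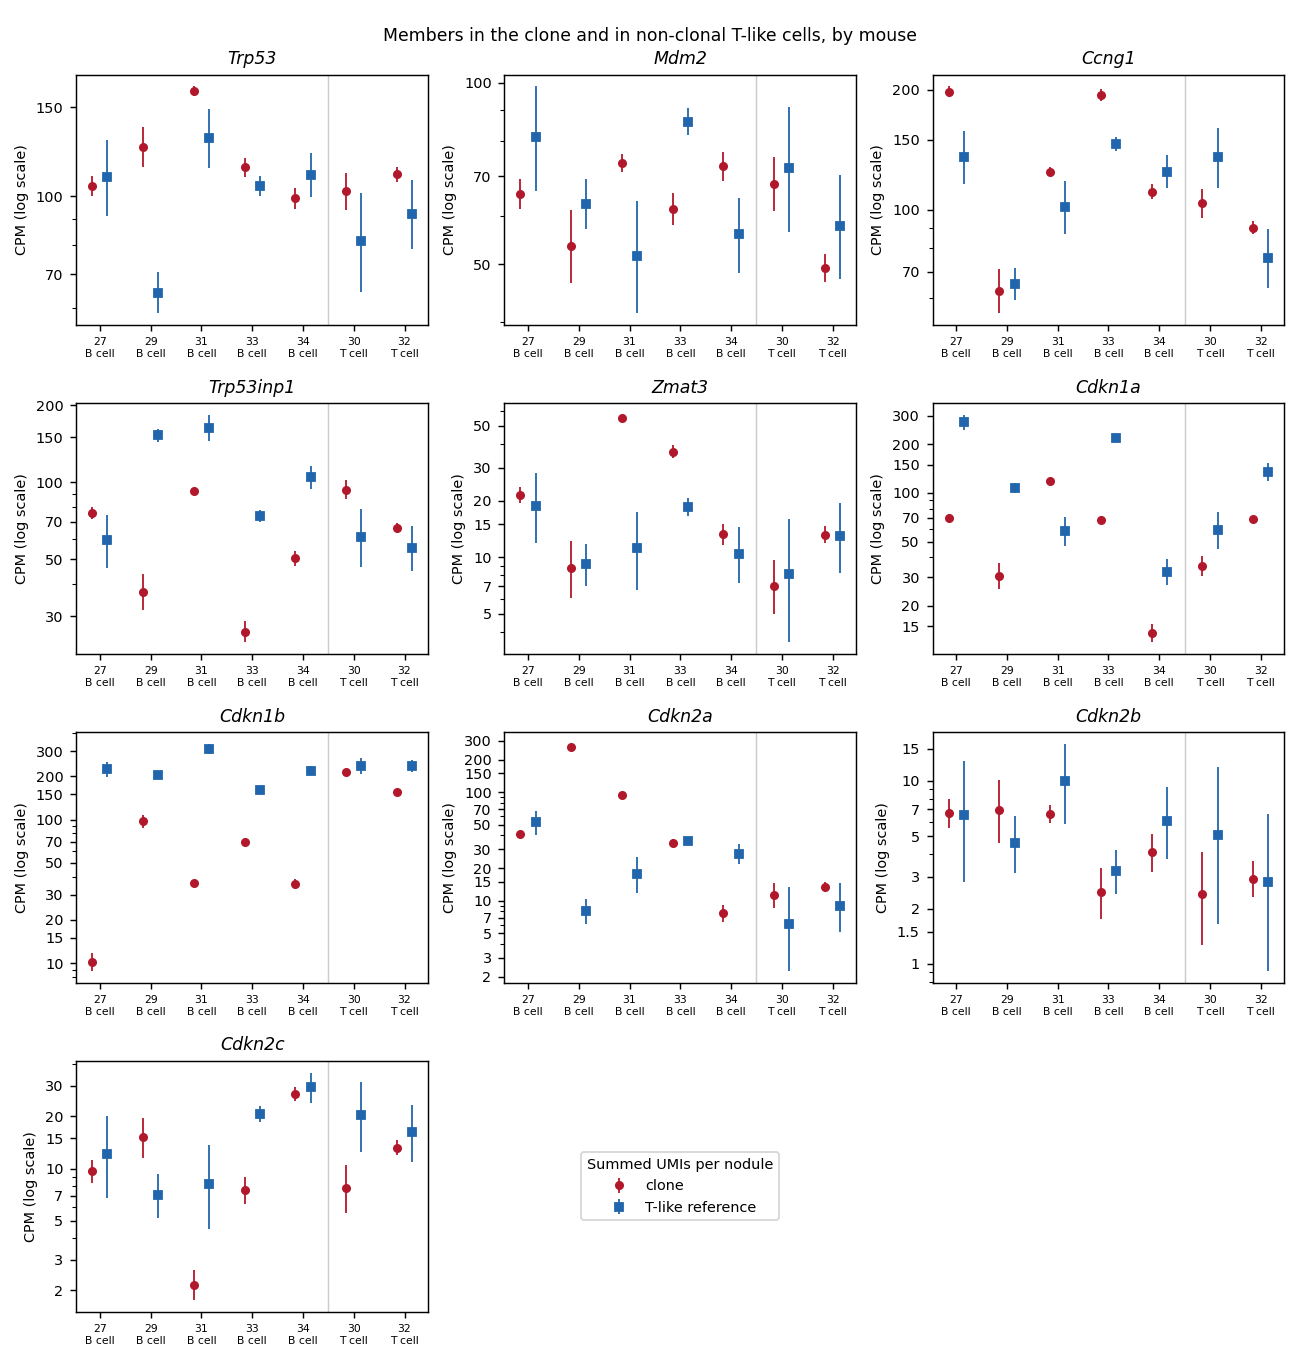
Level of each of the 10 genes (CPM, log scale) in the clone (red circles) and in T-like cells outside the clone (blue squares) of each nodule, with 95% Poisson intervals as bars; the vertical line separates the 5 B cell nodules from the 2 T cell nodules. Cdkn1b lay lower in the clone in 7 of 7 nodules, whereas Cdkn2a spanned 7.64 to 264 CPM over the clones.

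Among p53 target genes, Mdm2 and Ccng1 differed little between clones and T-like cells. Mdm2, the ubiquitin ligase that limits p53, had 65.4, 53.6, 68.0, 73.6, 49.3, 61.8 and 72.7 CPM in the clones of mice 27, 29, 30, 31, 32, 33 and 34. T-like cells had 81.2, 63.0, 72.3, 51.6, 57.9, 86.2 and 56.0 CPM. Clones were lower in 5 of 7 nodules, with an interval below 1 in mouse 27 (0.81, 0.656 to 0.997) and mouse 33 (0.72, 0.66 to 0.78) and above 1 in mice 31 and 34. Ccng1, which encodes cyclin G1, a partner of the phosphatase PP2A in a feedback on Mdm2, had 62.6 CPM in the clone of mouse 29 and 90.3 to 198 CPM in the other clones, against 65.3 to 146 CPM in T-like cells. Its largest ratio was 1.46 (1.25 to 1.71) in mouse 27 and its smallest was 0.77 (0.63 to 0.93) in mouse 30. Neither gene passed edgeR's test in any comparison in which it was tested.

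Trp53inp1, whose product promotes p53 phosphorylation and autophagy, was below T-like cells in 4 of 5 B cell clones and above them in both T cell clones. The B cell clones of mice 27, 29, 31, 33 and 34 had 76.1, 37.4, 92.8, 26.1 and 50.5 CPM, and their T-like cells had 59.3, 153, 163, 73.9 and 105 CPM. The 4 lower clones had ratios of 0.25 to 0.57 with intervals below 1, and only mouse 27 went the other way (1.28, 1.01 to 1.65). The T cell clones of mice 30 and 32 had 93.7 and 66.4 CPM against 61.1 and 55.6 CPM, with ratios of 1.53 (1.17 to 2.04) and 1.19 (0.97 to 1.48). Over the 5 B cell nodules the log2 difference was -0.97 (SE 0.31, adjusted p = 0.0558 by edgeR), just outside the threshold. Against B-like cells with another receptor, Trp53inp1 was lower in the clone in mouse 29 (37.4 against 351 CPM), mouse 31 (92.8 against 159) and mouse 33 (26.1 against 169), with intervals below 1, and in mouse 34 it was 50.5 against 39.9 CPM. That log2 difference was -1.78 (SE 0.60, adjusted p = 0.337 by edgeR) and did not pass.

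Zmat3, an RNA-binding zinc finger protein induced by p53, was high in 1 clone. The clones of mice 31 and 33 had 55.1 and 36.5 CPM, whereas those of mice 27, 29, 30, 32 and 34 had 21.4, 8.72, 7.01, 13.2 and 13.2 CPM. T-like cells stayed between 8.14 and 18.7 CPM in all 7 nodules. The clone-to-T-like ratio was 4.95 (3.16 to 8.23) in mouse 31 and 1.97 (1.71 to 2.26) in mouse 33, and the other 5 intervals included 1. In mouse 31, 44.8% of clone cells (exact binomial interval 43.2 to 46.4%) had a Zmat3 UMI, against 2.05% of T-like cells (1.22 to 3.23%). Clone cells were deeper there (median 11199.5 against 1716 UMIs). Cells with at least 2000 UMIs were therefore thinned to 2000 UMIs, and shallower cells were left out. The shares were then 10.7% of 3962 clone cells and 2.30% of 304 T-like cells. Over the 5 B cell nodules the log2 difference was 0.78 (SE 0.39, adjusted p = 0.170 by edgeR).

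Cdkn1a encodes p21, the CDK inhibitor through which p53 arrests the cell cycle. Clones of mice 27, 29, 30, 31, 32, 33 and 34 had 70.0, 30.8, 35.2, 119, 68.6, 68.0 and 13.6 CPM. T-like cells of these nodules had 274, 108, 59.0, 58.1, 135, 218 and 32.6 CPM. The clone was therefore below T-like cells in 6 of 7 nodules, with ratios of 0.26 to 0.60 and intervals below 1, and above them in mouse 31 alone (2.05, 1.68 to 2.53). The log2 difference was -1.16 over the B cell nodules (SE 0.48, adjusted p = 0.110 by edgeR) and -1.10 over all 7 nodules (SE 0.36, adjusted p = 0.0638), and neither passed. Without mouse 31, Cdkn1a passed in both, at -1.65 (SE 0.23, adjusted p = 0.00566) and -1.41 (SE 0.19, adjusted p = 0.00867). That omission removes the only nodule that went the other way, so it favors a pass. Of all alternative settings, Cdkn1a passed in 2 of 13 over the B cell nodules and in 2 of 17 over all 7 nodules. Against B-like cells with another receptor, the clone was lower in mouse 34 (13.6 against 47.9 CPM, ratio 0.28, 0.16 to 0.56), and the intervals in mice 29, 31 and 33 included 1.

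Cdkn1b, the gene of p27, which holds resting lymphocytes out of the cell cycle, was the member that fell in clones. In mice 27, 29, 30, 31, 32, 33 and 34 the clones had 10.2, 97.0, 214, 36.1, 155, 70.0 and 35.5 CPM. The T-like cells beside them had 223, 205, 236, 309.7, 237, 161 and 219 CPM. Every B cell clone lay below every T-like value, and the ratio was under 1 in 7 of 7 nodules, a pattern that 7.44% of the 11693 genes tested also showed. It was smallest in mouse 27 (0.0455, 0.0376 to 0.0551), where 8.02% of clone cells (6.81 to 9.38%) had a Cdkn1b UMI at a median of 9367 UMIs, against 33.5% of T-like cells at a median of 1365 UMIs. Both values of mouse 27 come from the transplanted tumor. Mouse 30 was the exception with an interval that included 1 (0.91, 0.79 to 1.05).

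Over the 5 B cell nodules Cdkn1b was 2.40 log2 units lower in clones (log2 difference -2.40, SE 0.56, adjusted p = 0.0197 by edgeR), lower in 5 of 5. It was the only 1 of 10 members called there, where 28.2% of 12463 genes were called (12.8% higher and 15.4% lower in the clone). Over all 7 nodules the difference was -1.81 (SE 0.53, adjusted p = 0.0479), again 1 of 10 members, where 18.2% of genes were called (8.43% higher and 9.78% lower). The call over B cell nodules held without the transplanted tumor of mouse 27 (-1.89, SE 0.42, adjusted p = 0.0298) and was lost without mouse 31 (adjusted p = 0.0613) or mouse 34 (adjusted p = 0.0634). The call over 7 nodules was lost without any 1 of mice 27, 29, 31, 33 and 34 (adjusted p = 0.0746 to 0.118), and with all cells without a receptor call as the reference the difference shrank to -0.34 (adjusted p = 0.496). That reference held all cell classes. It included 1400 to 4799 cells per nodule from the clusters of the clone, which may be clone cells whose chain was missed. T-like cells were the class with the highest Cdkn1b level in these nodules. In the B cell nodules lineage and clonality cannot be told apart in the comparison with T-like cells.

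Against cells of their own lineage the difference in Cdkn1b was smaller and no member passed. B cell clones had 97.0, 36.1, 70.0 and 35.5 CPM in mice 29, 31, 33 and 34, and B-like cells with another receptor had 97.1, 137, 82.6 and 59.8 CPM. The ratio was 0.26 (0.17 to 0.44) in mouse 31 and 0.59 (0.36 to 1.07) in mouse 34, and the intervals of mice 29, 33 and 34 included 1. The log2 difference over these 4 nodules was -0.80 (SE 0.31, adjusted p = 0.401 by edgeR). Of the 9 members tested there, 0 were called by edgeR and 0 by DESeq2, with 2 at an unadjusted p under 0.05 (Trp53inp1 and Cdkn1b), and 0.0217% of 9223 genes were called (0.0% higher and 0.0217% lower). Among all 9223 genes, 999 had an unadjusted p under 0.05. The other-receptor sums held only 138568 to 250645 UMIs from 23 to 41 cells per nodule. In the 2 T cell nodules, 0 of 10 members were called against T-like cells outside the clone by edgeR and 0 by DESeq2, with 1 at an unadjusted p under 0.05, and 0.215% of 11639 genes were called (0.00859% higher and 0.206% lower). That member was Cdkn1a, with a log2 difference of -1.02 (SE 0.25, adjusted p = 0.264 by edgeR). Among all 11639 genes, 1110 had an unadjusted p under 0.05.

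**Figure D2:**
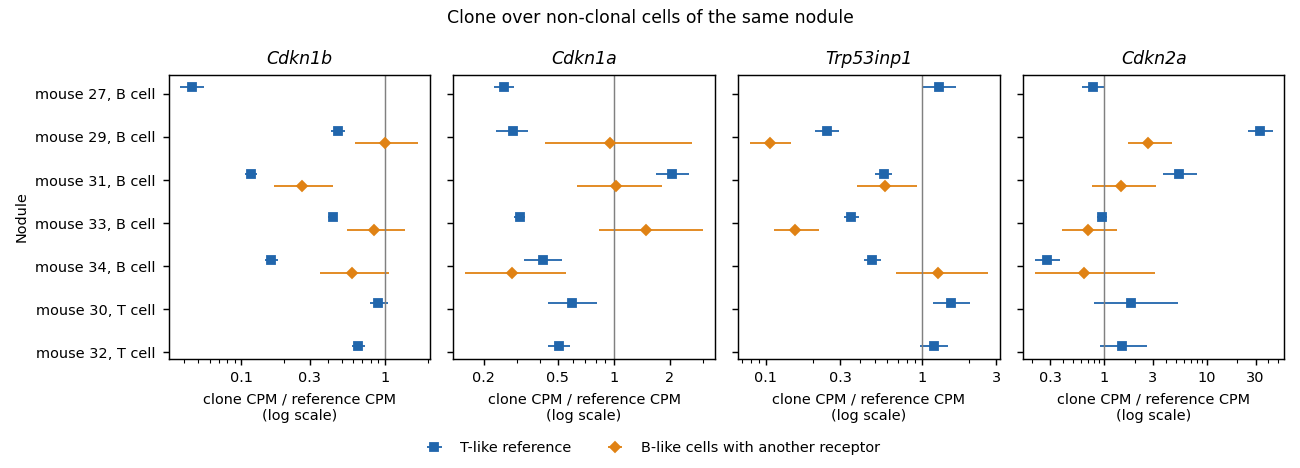
Ratio of clone CPM to the CPM of non-clonal cells of the same nodule (log scale) for 4 members, with T-like cells (blue squares) or B-like cells with another receptor (orange diamonds) as reference and 95% intervals for counting error as bars; the line marks a ratio of 1. Cdkn1b ratios to T-like cells were 0.0455 to 0.91, and Cdkn2a ratios ran from 0.28 in mouse 34 to 32.9 in mouse 29.

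Cdkn2a encodes both p16Ink4a, an inhibitor of Cdk4 and Cdk6, and p19Arf, which blocks Mdm2, and the gene counts do not separate the transcripts. Its level varied most between nodules. From the highest to the lowest, the clones of mice 29, 31, 27, 33, 32, 30 and 34 had 264, 94.8, 41.3, 34.4, 13.4, 11.2 and 7.64 CPM. In this order the intervals of mice 32 and 30 overlapped, as did those of mice 30 and 34, and all other neighbours had separate intervals. T-like cells of mice 29, 31 and 34 had 8.02, 17.6 and 27.1 CPM, and those of the other 4 mice had 6.11 to 52.8 CPM. The clone-to-T-like ratio was 32.9 (25.1 to 43.9) in mouse 29, 5.39 (3.77 to 7.997) in mouse 31 and 0.28 (0.21 to 0.37) in mouse 34, and the other 4 intervals included 1.

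A Cdkn2a UMI was found in 90.4% of the 323 clone cells of mouse 29 (86.7 to 93.4%, median depth 11273 UMIs), against 0.956% of its 5128 T-like cells (0.708 to 1.26%, median depth 1189.5). After thinning to 2000 UMIs the shares were 40.1% of the 322 clone cells and 1.93% of the 622 T-like cells that were deep enough. B-like cells of mouse 29 with another receptor had 97.1 CPM from 18 UMIs, 2.72 times below the clone (1.71 to 4.61), and this level too lay above that of T-like cells. In mouse 31 the share was 54.1% of clone cells (52.5 to 55.6%) and 2.51% of T-like cells (1.58 to 3.78%). Among cells with at least 2000 UMIs the shares after thinning were 17.9% and 2.30%. Because nodules moved in opposite directions, the log2 difference over B cell nodules was 0.86 with an SE of 1.04 (adjusted p = 0.567 by edgeR).

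The other INK4 genes were scarce. Cdkn2b, which encodes p15Ink4b and lies next to Cdkn2a on chromosome 4 (bases 89306289 to 89311032), had 2.40 to 6.93 CPM in clones and 2.81 to 9.97 CPM in T-like cells, and all 7 intervals of the ratio included 1. Cdkn2c, which encodes p18Ink4c, was lowest in the mouse 31 clone (2.14 CPM) and highest in the mouse 34 clone (26.9 CPM), with 7.53 to 15.1 CPM in the other 5. Its T-like levels were 7.02 to 29.5 CPM, and the ratio was below 1 with an interval excluding 1 in mouse 30 (0.38, 0.22 to 0.68), mouse 31 (0.26, 0.15 to 0.49) and mouse 33 (0.36, 0.29 to 0.45) and above 1 in mouse 29 (2.16, 1.45 to 3.22). Neither gene passed edgeR's test in any comparison in which it was tested.

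Single nodules were then compared with the other 6 clones. A gain or loss was a clone that was the highest or lowest of the 7, at least 4-fold from the median of the other 6 and with an interval that overlapped no other clone's. With 1 library per mouse this is a description without a test. Gains were found for 3 of 10 members, against 19.8% of 15191 genes with a gain in some nodule, and losses for 3 of 10 members, against 7.39% of genes (19.5% and 6.75% with the exact clonotype, which gave 6 calls as well). Cdkn2a in mouse 29 was 11.04 times the median of the other clones (264 against 23.9 CPM). Zmat3 in mouse 31 was 4.18 times that median (55.1 against 13.2 CPM), and Cdkn1b in mouse 30 was 4.03 times (214 against 53.03 CPM), a level beside the 236 CPM of that nodule's own T-like cells. The 6 clones set against mouse 30 were the 5 B cell clones and the T cell clone of mouse 32, the next highest at 155 CPM. Gains were met by 6.31% and 5.13% of genes in the T cell nodules of mice 30 and 32, and by 1.13% to 2.51% in B cell nodules.

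The losses concerned CDK inhibitors. Cdkn1b in mouse 27 was 8.20 times below the median of the other clones (10.2 against 83.5 CPM). Cdkn2c in mouse 31 was 5.35 times below (2.14 against 11.5 CPM), and Cdkn1a in mouse 34 was 5.04 times below (13.6 against 68.3 CPM). These clones held 185, 104 and 236 UMIs of these genes, and how many came from free RNA was not measured. Trp53, Mdm2, Ccng1 and Cdkn2b had no gain or loss in any nodule. Just outside the rule was Cdkn2a in mouse 34, the lowest clone at a log2 ratio of -2.31 to the median of the others, whose interval overlapped that of mouse 30. With a 2-fold rule Cdkn1a in mouse 31 and Cdkn2c in mouse 34 joined the gains and Trp53inp1 in mouse 33 the losses, against 34.2% and 16.4% of genes.

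**Figure D3:**
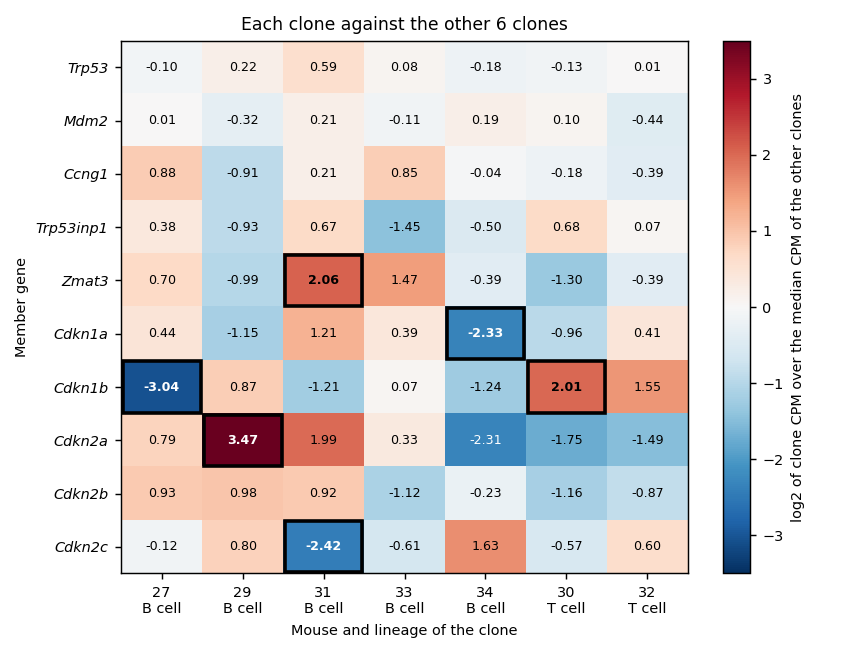
Log2 ratio of each clone's CPM to the median CPM of the other 6 clones, for 10 genes (rows) and 7 nodules (columns, with mouse and lineage); black boxes mark the 6 gains or losses of at least 4-fold whose interval overlapped no other clone's. The largest entries are Cdkn2a in mouse 29 (3.47) and Cdkn1b in mouse 27 (-3.04), and Trp53 stays between -0.18 and 0.59.

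The same deviations were read in cells that the clone definition did not use. Clusters holding clone cells also held cells without a receptor call, from 1400 (mouse 29) to 4799 (mouse 30), a set added after seeing the data. These had 235 CPM of Cdkn2a in mouse 29, 58.1 CPM of Zmat3 in mouse 31, 242 CPM of Cdkn1b in mouse 30, 17.7 CPM of Cdkn1b in mouse 27, under 2 CPM of Cdkn2c in mouse 31 and 10.6 CPM of Cdkn1a in mouse 34. Each was the highest or lowest of the 7 nodules in this set as well. Expression took part in forming the clusters, so cells of these clusters resemble the clone by construction.

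Genes beside the members were read as well, taking the 10 nearest genes with a mean of at least 5 CPM in the clones (those around Cdkn1b, Zmat3, Cdkn1a and Cdkn2c were added after seeing the data). Around Cdkn2a in mouse 34, the member lowest there, 4 of 10 genes were the lowest of the 7 clones, and 3 of them stood in a row on 1 side of Cdkn2a. These were Mtap, an enzyme of methionine salvage that is often deleted with CDKN2A in human tumors (0.19 of the median of the other clones), Klhl9 (0.18) and Focad (0.41). Mtap had 4.08 CPM in this clone, whereas T-like cells of the nodule had 52.8 CPM. The nearest genes on the other side of Cdkn2a in this list, Caap1 and Plaa, had ratios of 1.06 and 1.01, and the median of all 10 was 0.74. Cdkn2b, the next gene on that side, fell under the 5 CPM cutoff and was at 0.85 of the median. In mouse 27, where Cdkn2a was 1.73 times the median, Mtap (0.43) and Klhl9 (0.47) were also low, and Focad was at 0.94. What lay behind these levels was not tested. Around Cdkn2a in mouse 29, 4 of 10 genes were the highest of the 7, Mtap (1.98) and Klhl9 (1.79) among them, with a median of 1.26.

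Around the other deviations the neighbours were mixed. Of the 10 genes around Cdkn1b in mouse 30, 4 were the highest of the 7 clones, including Crebl2 (15.6) and Dusp16 (3.21), and 2 were the lowest. In mouse 27, where Cdkn1b was lowest, 0 of these genes were the lowest and 3 were the highest, with a median of 1.297. Around Cdkn2c in mouse 31, 3 of 10 were the lowest, Faf1 (0.59), Eps15 (0.64) and Rnf11 (0.73), and the median was 0.92. Around Cdkn1a in mouse 34, 1 of 10 was the lowest, and the median was 1.42. Around Zmat3 in mouse 31, 2 of 10 were the highest, and the median was 1.47. No background over other positions was computed for these counts. Wrap53, the gene just before Trp53, had 6.56 to 16.5 CPM in clones, and strand use in counting is not given in the sources used here. Atp1b2, on the other side of Trp53, had 19.0 CPM in the clone of mouse 32 and at most 2.77 CPM in the others.

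Between lineages, 0 of 10 members were called in the 2 T cell clones against the 5 B cell clones by edgeR, with 1 at an unadjusted p under 0.05 and 1 called by DESeq2, where edgeR called 6.74% of 15191 genes (4.69% higher and 2.05% lower in T cell clones). That member was Cdkn2a, at 11.2 and 13.4 CPM in T cell clones and 7.64 to 264 CPM in B cell clones, with a log2 difference of -3.08 (SE 1.29, adjusted p = 0.180 by edgeR and 0.0259 by DESeq2). The groups overlapped, since the B cell clone of mouse 34 was the lowest of the 7. Cdkn1b was higher in both T cell clones (155 and 214 CPM) than in any B cell clone (10.2 to 97.0 CPM), with a log2 difference of 1.58 (SE 0.70, adjusted p = 0.197). Of the 15191 genes, 4007 had an unadjusted p under 0.05 with edgeR, and DESeq2 called 3038. Lineage and the receptor profiled cannot be told apart.

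Within each clone, cells with at least 2 UMIs of 10 proliferation genes (cycling cells) were compared with cells that had 0. The 10 genes hold no member. Cycling cells numbered 114 (mouse 29) to 2890 (mouse 31) and the others 117 (mouse 27) to 2672 (mouse 32). Trp53inp1 fell in cycling cells of 7 of 7 clones, a direction that 7.01% of 10402 genes showed in all 7. It had 72.5, 23.9, 60.4, 85.1, 46.7, 21.0 and 46.5 CPM in cycling cells of mice 27, 29, 30, 31, 32, 33 and 34 and 94.6, 49.8, 99.9, 128, 76.0, 42.4 and 74.6 CPM in the others. The log2 difference was -0.75 (SE 0.10, adjusted p = 0.000153 by edgeR with the mouse as a block).

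Trp53 was higher in cycling cells of 6 of 7 clones. It had 108, 119, 136, 167, 148, 121 and 103 CPM in cycling cells and 83.3, 133, 95.2, 135, 85.6, 93.6 and 66.6 CPM in the others, in the same order of mice, and mouse 29 went the other way. The log2 difference was 0.38 (SE 0.10, adjusted p = 0.0211 by edgeR). With Trp53 and Trp53inp1, 2 of 10 members were called, against 23.2% of genes (11.7% higher, 11.5% lower). The call of Trp53 was lost without mouse 34 (adjusted p = 0.0617 by edgeR). It was also lost when cycling cells were chosen after thinning cells to 2000 UMIs (0.31, adjusted p = 0.05005), whereas Trp53inp1 then had -0.97 (adjusted p = 1.79e-05). That choice also left out shallower cells, and in mouse 30 only 1041 of 2107 clone cells were deep enough. Without thinning, median depth was 6282.5 to 16131 UMIs in cycling cells and 1903 to 10249 in the others.

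The CDK inhibitors showed no such shared step. Cdkn1b was lower in cycling cells of both T cell clones, 148 against 235 CPM in mouse 30 and 106 against 194 CPM in mouse 32. In B cell clones it was 63.97 against 87.2 CPM in mouse 33, and the clones of mice 27, 29, 31 and 34 had 10.2, 100.4, 36.2 and 36.3 against 12.6, 94.4, 34.1 and 38.3 CPM. The log2 difference was -0.38 (SE 0.13, adjusted p = 0.0520 by edgeR), and it passed in 3 of 17 alternative settings. Cdkn1a had a log2 difference of 0.10 (SE 0.11, adjusted p = 0.562) and Cdkn2a of 0.06 (SE 0.14, adjusted p = 0.817).

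**Figure D4:**
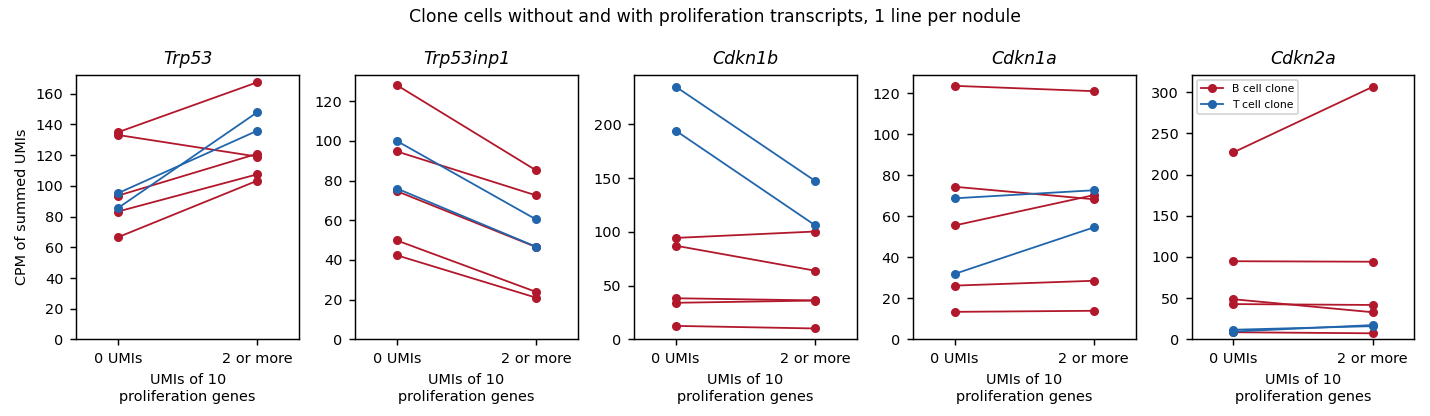
Level (CPM of summed UMIs, linear axis from 0) of 5 members in clone cells with 0 UMIs of 10 proliferation genes and in those with 2 or more, 1 line per nodule, B cell clones in red and T cell clones in blue. All 7 lines fall for Trp53inp1, and 6 of 7 rise for Trp53.

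Outside the clones the members marked different cell classes. In the T cell nodules, the T-like class here also included cells without a receptor call. Cdkn1a was high in most non-lymphoid classes, with medians over nodules of 437 CPM in endothelial-like cells (3 nodules, 416 to 585), 365 CPM in macrophage- or monocyte-like cells (7 nodules, 173 to 478) and 291 CPM in fibroblast-like cells (2 nodules), against 108 CPM in T-like cells (7 nodules, 32.6 to 274). Epithelial-like cells had 192 CPM (2 nodules) and neutrophil-like cells 171 CPM (3 nodules). Erythroid-like cells were below T-like cells in median, at 71.6 CPM (2 nodules, 23.7 to 119). Cdkn1b had its highest median in T-like cells (223 CPM, 161 to 309.7), above the 43.9 to 128 CPM of macrophage- or monocyte-like cells in all 7 nodules. Mdm2 was at 148 CPM in macrophage- or monocyte-like cells (89.5 to 311) and 63.0 CPM in T-like cells (50.9 to 86.2), and these ranges did not overlap. Cdkn2c had 40.3 CPM in endothelial-like cells and 12.2 CPM in T-like cells. B-like cells outside the clone include clone cells without a receptor call, so their Cdkn2a of 3.82 to 232 CPM over 6 nodules tracks the clones by construction.

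**Figure D5:**
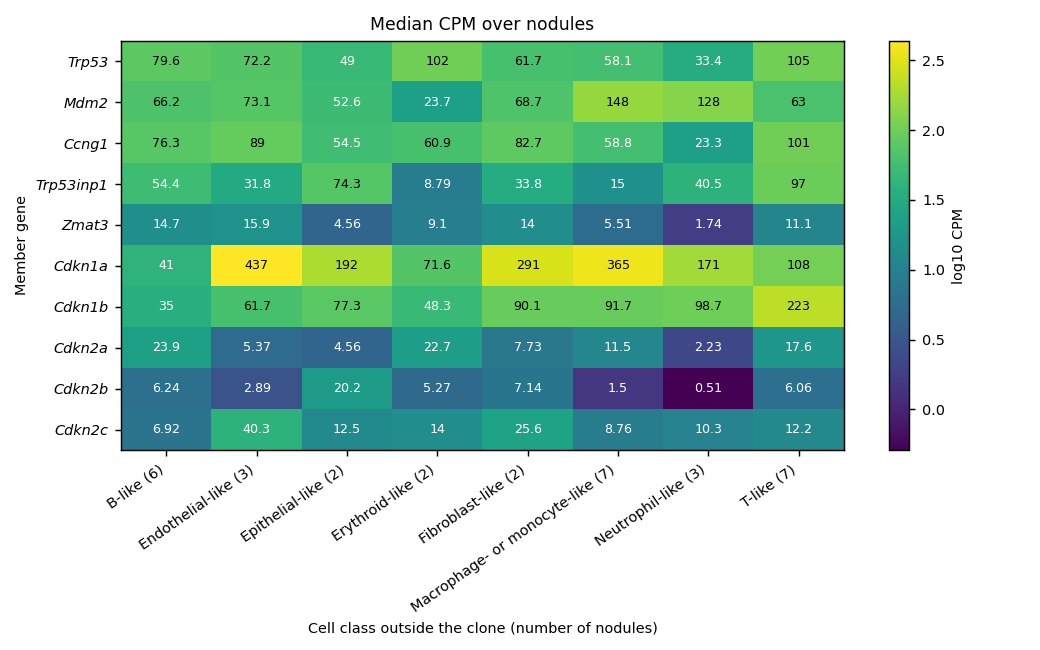
Median CPM over nodules of the 10 genes (rows) in cell classes outside the clone (columns, number of nodules in brackets), with color on a log10 scale and the median printed in each cell. Cdkn1a is highest in endothelial-like cells (437 CPM) and Cdkn1b in T-like cells (223 CPM).

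The genes most like each member were found over 14 sums (7 clones and 7 T-like sets) by Pearson's r of log2(CPM + 1) among 10158 genes with a mean of at least 5 CPM. These values are descriptions, since sums of a nodule share a library and clones differ from T-like cells in many genes. For Cdkn1b the closest were Ptger4 (r = 0.97), a prostaglandin E2 receptor, and Ifi203 (0.97). For Zmat3 they were Plekho2 (0.94) and Gnptab (0.92), for Trp53 Mrps21 (0.89) and Tufm (0.88), and for Ccng1 Psmb9 (0.88) and Txn1 (0.84). Cdkn2a lay closest to Sf3b6 (0.87) and Timm8b (0.87), Trp53inp1 to Mlf1 (0.86) and Ldlrad4 (0.86), Cdkn2c to Raly (0.85) and Ctnnbl1 (0.82), and Cdkn1a to Fbxo34 (0.85) and Abcb1b (0.84). Cdkn2b lay closest to Gtf2b (0.83) and Dnttip2 (0.75), and Mdm2 had the weakest match, Il21r (0.74) and Chp1 (0.69).

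Further genes of the pathway were read from fixed lists. As for Cdkn1b, lineage and clonality cannot be told apart in the B cell nodules when T-like cells are the reference. Of 33 other p53 targets 29 could be tested over all 7 nodules, and 2 were higher and 3 lower in clones, where 8.43% of all genes were higher and 9.78% lower, with a median log2 difference of -0.11 against 0.05 for all genes tested. Higher were Sesn1 (0.90, SE 0.18, adjusted p = 0.0192 by edgeR), a stress-induced regulator of mTORC1, and Fbxw7 (1.37, adjusted p = 0.0350), a ubiquitin ligase subunit for cyclin E and Myc. Lower were the antiproliferative gene Btg2 (-1.90, SE 0.33, adjusted p = 0.0115), the kinase gene Plk3 (-2.40, adjusted p = 0.0216) and Apaf1 (-1.29, adjusted p = 0.0472), the core of the apoptosome. Apaf1 was above T-like cells in the T cell clone of mouse 32 (55.0 against 49.4 CPM). In the 5 B cell nodules 2 of 29 were higher and 5 lower, against 12.8% and 15.4% of all genes (median -0.19 against 0.05). Among the lower was Perp, an apoptosis effector, at -5.81 (SE 0.47, adjusted p = 0.000415 by edgeR). Perp had 0.22 to 1.20 CPM in B cell clones. The T cell clones of mice 30 and 32 had 49.4 and 16.9 CPM, and their T-like cells 22.4 and 14.6 CPM. It was also called higher in T cell clones than in B cell clones (5.51, SE 0.78, adjusted p = 0.0129 by edgeR). There it was 1 of 30 p53 targets tested, against 4.69% of all genes called higher. Cycling cells had 2 of 26 higher, Ckap2 and Rps27l, and 5 lower, Btg2, Sesn1, Plk2, Pmaip1 and Bbc3, against 11.7% and 11.5% of all genes.

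Of 14 regulators of p53 or Cdkn2a 12 could be tested over all 7 nodules, and 4 were higher in clones, against 8.43% of all genes (median 0.23). Trp63, which encodes the p53 relative p63, had 41.3, 30.01, 0.369, 70.9, 52.4, 64.5 and 1.21 CPM in the clones of mice 27, 29, 30, 31, 32, 33 and 34. T-like cells had 2.44, 1.15, 0, 8.80, 7.87, 2.84 and 0 CPM. It was 30.01 CPM or more in 5 clones, 1 of them a T cell clone, and near 0 in mice 30 and 34 (log2 difference 3.86, SE 0.37, adjusted p = 0.000846 by edgeR). The others were the checkpoint kinase gene Chek2 (1.57, adjusted p = 0.0157), Usp7 (0.53, adjusted p = 0.0329), which removes ubiquitin from Mdm2 and p53, and Ezh2 (1.25, adjusted p = 0.0385), the methyltransferase that silences Cdkn2a in many cells. In the T cell clone of mouse 30 Ezh2 was below T-like cells (64.9 against 111 CPM). Ezh2 was also lower in T cell clones than in B cell clones (-1.99, SE 0.47, adjusted p = 0.0493 by edgeR). Chek1 (2.29), Chek2 (1.01) and Ezh2 (0.96) were higher in cycling cells, and Cbx7 (-0.70) and Mdm4 (-0.23) lower, each past the threshold of edgeR's test.

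Of 23 genes of the CDK and retinoblastoma axis 21 could be tested over all 7 nodules, with 4 higher and 2 lower in clones, against 8.43% and 9.78% of all genes (median 0.38). Higher were Cdk2 (1.08, adjusted p = 0.0235), Ccne2 (1.28, adjusted p = 0.0259), Cdk1 (1.04, adjusted p = 0.0341) and E2f1 (1.29, adjusted p = 0.0345), all active in DNA replication or mitosis. Lower were Cdkn2d (-1.28, adjusted p = 0.0283 by edgeR), the INK4 inhibitor p19Ink4d, and the retinoblastoma relative Rbl2 (-1.71, adjusted p = 0.0362). Both were above T-like cells in the T cell clone of mouse 30 (Cdkn2d 46.3 against 40.7 CPM, Rbl2 309 against 227 CPM). In the T cell clone of mouse 32, Rbl2 was 107 against 109 CPM. The summed level of the 10 proliferation genes was 369 to 1807 CPM in clones and 124 to 924 CPM in T-like cells, and its part in these differences was not tested. In B cell nodules 6 of 23 were higher, Myc (1.80) and Cdk4 (1.03) among them, against 12.8% of all genes, and 4 lower, against 15.4%, including Rb1 (-1.36) and Ccnd3 (-1.29). T cell clones had more Ccnd3 (2.31) and Cdkn2d (1.59) and less Cks1b (-2.60) and Foxo1 (-1.96) than B cell clones. Against own-lineage cells edgeR called 0 of the 62 list genes tested in T cell clones, with 4 at an unadjusted p under 0.05 and 1 called by DESeq2. In B cell clones it called 0 of 58, with 12 at an unadjusted p under 0.05 and 0 called by DESeq2. Among all 11639 genes tested in T cell clones, 1110 had an unadjusted p under 0.05, and DESeq2 called 222. Among all 9223 tested in B cell clones, these numbers were 999 and 132.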

How the data were processed

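White nodules that arose in 7 cKO mice, 6 of them primary and that of mouse 27 after transplantation into a recipient, were profiled by droplet single-cell RNA-seq with matched V(D)J libraries. From the reads the authors made matrices of raw UMI counts, deposited without normalization, and tables of receptor chains per cell barcode. Per the labels the build is GRCm38 (mm10). The aligner, the counter and strand use are not given in the sources used here, and the methods name a 3′ kit for RNA while the labels name a 5′ kit, so the end read was not settled. All 7 count matrices carry the same 32285 genes.

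The 10 members and the gene lists were chosen with earlier results of these data known. Of 77442 deposited cells, 75503 with at least 201 UMIs, at least 101 genes and at most 10% mitochondrial UMIs were kept. Cells of all nodules were clustered together without the members (scanpy 1.11.5, leidenalg 0.10.2, 2000 variable genes, 30 components, 15 nearest neighbours, resolution 1) and classes named from fixed markers when at least 3 were raised. No doublet caller was run. Cells with at least 2 UMIs of markers of both lineages were left out as an alternative. Depth per clone cell was 1992 to 13763 UMIs (median). For thinned shares 2000 UMIs were drawn from each cell with at least 2000 UMIs, and shallower cells were left out.

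UMIs were summed per nodule and cell set and tested with edgeR 4.0.16 (quasi-likelihood, TMM factors, filterByExpr) over all genes, with Benjamini-Hochberg adjustment and a threshold of 0.05. The mouse entered as a block where both sets came from the same nodules, since clone and reference cells shared an animal and a library. Each mouse gave 1 sample, so n counts mice. DESeq2 1.42.0 was an alternative. The test was checked on simulated data. Intervals for CPM (Poisson), ratios and shares (exact binomial) have a level of 95% and cover counting error only. Named genes were all members, the 2 genes most like each, list genes past the test, and neighbours of Trp53 and Cdkn2a. Neighbours of Cdkn1a, Cdkn1b, Cdkn2c and Zmat3 were added after seeing the data. Positions and promoter windows came from RefSeq tables of GRCm38.p6. Alternatives covered scaling, filters, the block, each mouse left out, clonotype in place of chain, other reference cells, and cells sharing barcodes.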

Additional observations from a re-analysis of the deposited data

How the results depend on the processing

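Of 252 alternative values 204 kept their direction and side of the threshold and 0 reversed. Members called in B cell clones against T-like cells numbered 1, and 3 with DESeq2, 2 without doublet-gate cells, 2 with T cells taken by a marker gate, and 0 to 2 with 1 mouse left out (0 without mouse 34, 2 without mouse 27). All genes called in that comparison numbered 3518 of 12463, and 4765 with DESeq2. They numbered 3566 of 12371 without doublet-gate cells and 3592 of 12298 with the marker gate. Without mouse 34 they were 2334 of 12417, and without mouse 27 they were 2319 of 12802. Over all 7 nodules 1 was called, 2 with DESeq2, and 0 without a filter on low counts, without the replicate block, with T clones limited to T-like cells (chosen after seeing the data), with the marker gate or with all uncalled cells, and 0 to 1 with 1 mouse left out (0 without mouse 27, 29, 33 or 34). Between T cell and B cell clones 0 were called and 1 with DESeq2, 0 to 0 with 1 mouse left out, as for B cell clones against other B cells. In cycling cells 2 were called, 0 without the replicate block, 1 with the choice made after thinning, and 1 to 2 with 1 mouse left out. Without the block Cdkn1b kept its call in B cell nodules (-2.08, adjusted p = 0.0143). No mouse could be left out for T cell clones against other T cells. All 10 members were read in every clone, and 8 passed for shares after thinning against 5 unthinned. The 6 gains or losses were 6 with clonotypes and 9 at 2-fold. All genes called moved most where few were: 25 became 222 (DESeq2), 525 (no filter), 4 (RLE factors) and 0 (no block) for T cell clones against other T cells, and 2 became 132, 127, 2 and 0 for B cell clones against other B cells. Over all nodules 2129 of 11693 became 4115 with DESeq2, 2215 of 25653 without a filter and 914 without the block. They became 1426 of 11593 with T clones so limited, 1315 of 11307 with the marker gate and 726 of 14666 with uncalled cells. Without mouse 27, 29, 33 or 34 they became 543 of 11823, 985 of 12559, 526 of 11300 and 472 of 11761, respectively. Between lineages 1024 became 3038 with DESeq2 and 179 without mouse 30. In cycling cells 2417 of 10402 became 276 without the block and 2667 of 11091 with the choice made after thinning. The causes were not tested. The own-lineage comparisons rest on 23 to 41 other B cells per nodule, or on 2 T cell nodules.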
